A study of Mus musculus with 10 samples.

Results

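Livers of female mice with a full-body knockout of Etnppl were set against wild-type female livers for 10 genes of de novo lipogenesis, the pathway that builds fatty acids from acetyl-CoA. The genes were taken by symbol from a table of 47729 genes, and all 10 were among the 12395 with a mean of at least 0.5 FPKM that were tested. They are Acly and Acss2, which supply acetyl-CoA, the carboxylases Acaca and Acacb, the fatty acid synthase Fasn, the malic enzyme Me1, the elongase Elovl6, the desaturase Scd1 and the transcription factors Srebf1 and Mlxipl. Etnppl encodes a lyase that degrades phosphoethanolamine, from which phosphatidylethanolamine is also made. The knockout (KO) group held 5 liver samples of mice with the full-body Etnppl knockout, and the wild-type (WT) group held 5 liver samples of mice with intact Etnppl. All of the mice were female, and in both groups 8 weeks of chow were followed by 10 weeks on a high-fat diet that drew 45% of its calories from fat. The sources used here do not give the strain, how the allele was made or the age at harvest. Nothing in the labels ties each numbered sample to its own mouse, so the p-values reflect the spread among these samples, which may be technical. Each numbered sample is called a liver below. The series is about weight gain and lipid metabolism on this diet, and the comparison asks whether RNA of the lipogenic pathway differs between the genotypes.

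In hepatocytes, cytosolic citrate is split to acetyl-CoA by ATP citrate lyase, carboxylated to malonyl-CoA and condensed by fatty acid synthase into palmitate, with NADPH as the reductant. Palmitate is then elongated to stearate by ELOVL6 and desaturated to oleate by SCD1. Insulin drives the pathway through SREBP-1c, made from Srebf1, and glucose drives it through ChREBP, made from Mlxipl. Dietary polyunsaturated fat is known to hold SREBP-1c and its targets down.

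Poly(A)-selected RNA was sequenced with 1 library per numbered sample, at an estimated 21400000 to 28400000 fragments per library. Values are FPKM, in which fragment numbers are divided by transcript length and by library size, so that levels can be compared between genes. Etnppl checked the labels, lying between 7.36 and 10.19 FPKM in KO livers and between 27.57 and 56.55 FPKM in WT livers. KO replicate 3 stood apart by its exocrine pancreas markers, whose 7 genes summed to 115.1 FPKM there and to between 2.17 and 3.33 FPKM in the other livers of either genotype. Of 10 hepatocyte markers, 9 were higher in KO livers, against 34.9% of all genes tested. At an unadjusted limma p under 0.05 there were 2, both higher, a call that 2.69% of all genes tested met in that direction. Their summed levels, which the most abundant markers dominate, were 74555 to 86019 FPKM in KO livers and 67636 to 79184 FPKM in WT livers. No marker of either list, and none of the other 8 lists of cell type markers, passed an adjusted p of 0.05 in limma. Adipose tissue, another site of lipogenesis, left little trace, since its 7 markers summed to 1.60 to 3.27 FPKM in KO livers and 0.820 to 2.40 FPKM in WT livers, with Lep and Ucp1 listed at 0 in every library. Its 1 tested marker, Adrb3, was at 2.31 ± 0.579 FPKM in KO livers and 1.43 ± 0.682 FPKM in WT livers (mean ± SD over 5 livers). Its limma adjusted p was 0.319, and its part in the lipogenic genes was not tested. In bulk tissue, fewer cells of a type and less RNA per cell cannot be told apart.

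None of the 10 lipogenic genes passed the test between the genotypes over all genes (limma with Benjamini-Hochberg adjustment, adjusted p under 0.05), where 0.0645% of all genes tested passed in either direction and 0.0323% in the higher one. The nearest were Acss2, at 22.0 ± 0.927 FPKM in KO livers and 17.2 ± 2.39 FPKM in WT livers, and Fasn, at 41.5 ± 10.1 FPKM in KO livers and 26.8 ± 3.38 FPKM in WT livers (mean ± SD, n = 5 each). These 2 were the genes of the set at an unadjusted p under 0.05, both higher in KO, a call that 2.69% of all genes tested met in the higher direction and 9.07% in the lower. The log2 fold change was positive for 8 of the 10 genes, against 34.9% of all genes tested, and negative for Me1 and Mlxipl, against 65.1%. Its median over the 10 genes was 0.14, against -0.05 over all genes tested and 0.13 over the 10 hepatocyte markers.

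**Figure D1:**
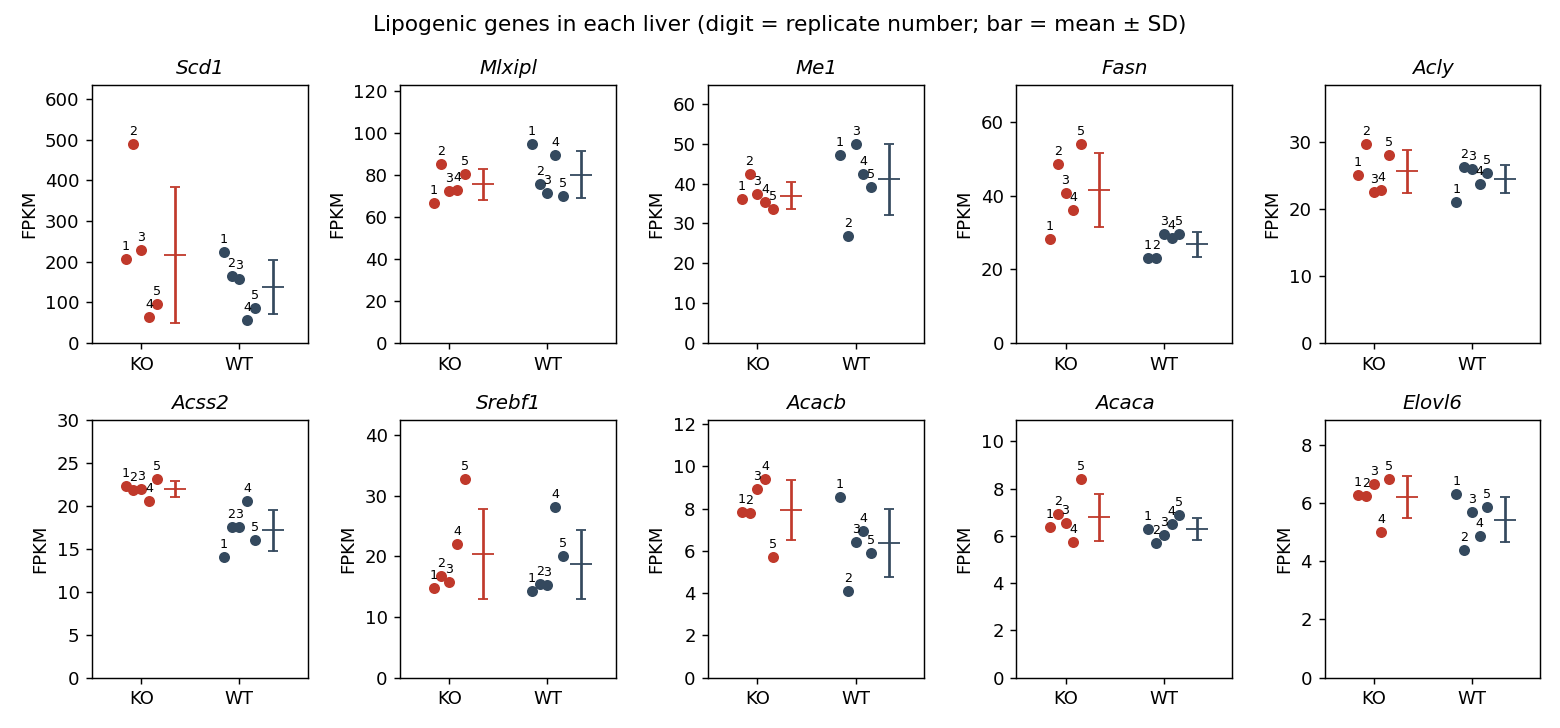
FPKM of the 10 lipogenic genes in each KO liver (left, red) and WT liver (right, blue), with the replicate number above each point and the mean ± SD beside them. In Acss2 and Fasn, 4 of 5 KO livers lie above every WT liver, whereas in Scd1 and Srebf1 the livers numbered 4 and 5 of both genotypes lie apart from those numbered 1 to 3.

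Acetyl-CoA reaches the cytosol by a pair of routes in this set. Acss2 (ENSMUSG00000027605), the cytosolic synthetase that makes acetyl-CoA from acetate, was at 22.36, 21.90, 22.02, 20.57 and 23.12 FPKM in KO replicates 1 to 5, against 14.09, 17.50, 17.60, 20.60 and 16.04 FPKM in WT replicates 1 to 5. The KO livers lay close together, and the groups overlapped only through KO replicate 4 and WT replicate 4. Acss2 had a log2 fold change of 0.36 (SE 0.09, 95% CI 0.17 to 0.55), with an unadjusted limma p of 0.00146 and an adjusted p of 0.143, and all 5 KO livers were above the WT mean. Without KO replicate 3 the log2 fold change was 0.36 (limma adjusted p = 0.241). Acss2 lies on chromosome 2, from 155517948 to 155585724 on the plus strand (GRCm38), and 3.89% of its exon bases overlap Gss on the opposite strand, which had 26.43 to 38.39 FPKM. The library protocol was directional per the labels, but the sources used here do not say whether counting took strand into account, and Acss2os, an opposite-strand gene, shares 50-base windows with it as well (8.31% of its windows occur in other genes).

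Acly (ENSMUSG00000020917), the ATP citrate lyase that supplies acetyl-CoA from mitochondrial citrate, was at 25.06, 29.67, 22.49, 22.92 and 28.07 FPKM in KO replicates 1 to 5, against 21.11, 26.36, 25.95, 23.80 and 25.33 FPKM in WT replicates 1 to 5. The ranges overlapped, with KO replicates 2 and 5 above every WT liver and WT replicate 1 below every KO liver. Its log2 fold change of 0.06 had a 95% CI of -0.14 to 0.26 (limma adjusted p = 0.834), which bounds the difference at 1.19-fold upward and 0.910-fold downward.

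Fasn (ENSMUSG00000025153), the multifunctional synthase that makes palmitate, was at 28.14, 48.51, 40.78, 36.22 and 53.94 FPKM in KO replicates 1 to 5, against 23.17, 23.01, 29.56, 28.46 and 29.58 FPKM in WT replicates 1 to 5. KO replicate 1 lay inside the WT range and the other 4 KO livers above it. The log2 fold change was 0.60 (SE 0.16, 95% CI 0.26 to 0.94), or 1.51-fold, with an unadjusted limma p of 0.00247 and an adjusted p of 0.175. It was 0.73 without KO replicate 1 (limma adjusted p = 0.0906), 0.50 without KO replicate 5 (limma adjusted p = 0.212) and 0.60 without KO replicate 3 (limma adjusted p = 0.261). The KO livers also varied more, by 1.92-fold from lowest to highest, than the WT livers, by 1.29-fold. Fasn lies on chromosome 11, from 120805846 to 120824547 on the minus strand (GRCm38).

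With FPKM as deposited, no gene of the set had groups that did not overlap, a pattern that 0.581% of all genes tested showed in the higher direction and 2.21% in the lower. Under median-of-ratios scaling and under quantile normalization, both Fasn and Acss2 had every KO liver above every WT liver, as did 1.25% of all genes tested under median-of-ratios scaling and 1.2% under quantile normalization. Under that median-of-ratios scaling the split of all genes at an unadjusted p under 0.05 was 655 higher and 632 lower, against 334 higher and 1124 lower as deposited, and the median of all genes moved to 0.00. Fasn and Acss2 still did not pass there (limma adjusted p = 0.147 for Fasn and 0.127 for Acss2).

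The 250 bases before the RefSeq start of these 2 genes (GRCm38.p6) are shown because they are the members nearest to the threshold. Capitals mark the CCAAT box (letters CCAAT) and the GC box (letters GGGCGG), searched on both strands. Fasn spans chr11:120824548-120824797 on the minus strand and Acss2 spans chr2:155517793-155518042 on the plus strand. For Acss2 the GENCODE M21 gene begins upstream of the RefSeq start, so the end of its window lies inside the GENCODE gene.
Fasn: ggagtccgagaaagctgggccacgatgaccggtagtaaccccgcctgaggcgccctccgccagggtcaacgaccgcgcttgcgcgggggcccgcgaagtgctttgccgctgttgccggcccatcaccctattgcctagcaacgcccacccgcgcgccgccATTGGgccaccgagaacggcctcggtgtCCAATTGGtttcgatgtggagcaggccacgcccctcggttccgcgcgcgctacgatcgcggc
Acss2: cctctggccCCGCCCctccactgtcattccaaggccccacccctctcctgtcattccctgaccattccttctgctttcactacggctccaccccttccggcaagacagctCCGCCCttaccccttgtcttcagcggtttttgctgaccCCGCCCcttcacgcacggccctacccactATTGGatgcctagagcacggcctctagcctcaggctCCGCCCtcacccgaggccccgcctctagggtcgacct
NF-Y, which binds CCAAT, and Sp1, which binds GC boxes, are known partners of SREBP proteins at lipogenic promoters. The Fasn window held 3 CCAAT matches, at 90, 62 and 59 bases before the start, of which the last 2 share letters, and no GC box. The Acss2 window held 1 CCAAT match, 73 bases before the start, and 4 GC boxes, from 241 to 37 bases before it. Among 32851 windows of the same length in the RefSeq table, 33.8% held CCAAT and 32.7% held GGGCGG, so these letters are common. Of the 13 windows of the 9 lipogenic genes matched there, 7 held CCAAT, 6 held GGGCGG and 1, of Mlxipl, held the E-box CACGTG, which 6.02% of all windows hold. A TATA box (TATAAA) was in 1 of the 13, against 12.4% of all windows. The sterol response element, searched as a single exact spelling of 10 letters, was in 0 of the 13, against 0.0731% of all windows.

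The carboxylases make malonyl-CoA, Acaca for synthesis in the cytosol and Acacb at the outer mitochondrial membrane, where malonyl-CoA restrains fatty acid entry. Acacb (ENSMUSG00000042010) was at 7.84, 7.80, 8.94, 9.39 and 5.72 FPKM in KO replicates 1 to 5, against 8.54, 4.11, 6.41, 6.92 and 5.88 FPKM in WT replicates 1 to 5. The groups overlapped, with KO replicate 5 below 4 of the WT livers. Acacb had a log2 fold change of 0.31 (95% CI -0.06 to 0.68, limma adjusted p = 0.492), and 0.18 without WT replicate 2, the liver with the lowest value. Without KO replicate 5 it was 0.42, at an unadjusted limma p of 0.0237 and an adjusted p of 0.318. Without WT replicate 1 it was also 0.42, at an unadjusted limma p of 0.0229 and an adjusted p of 0.370.

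Acaca (ENSMUSG00000020532) was at 6.39, 6.93, 6.54, 5.73 and 8.40 FPKM in KO replicates 1 to 5, against 6.29, 5.72, 6.05, 6.5 and 6.90 FPKM in WT replicates 1 to 5. Its WT values were tight, and KO replicate 5 alone lay well above them. Acaca had a log2 fold change of 0.10 (95% CI -0.11 to 0.31, limma adjusted p = 0.740), and 0.02 without KO replicate 5. Of the 50-base windows in its longest GENCODE M21 transcript, 52.6% also occur in the processed pseudogene Gm5182. That symbol has no entry among the deposited genes, and how reads of the shared sequence were counted is uncertain. Acacb made 53.7 ± 8.12% of the summed FPKM of both carboxylases in KO livers and 49.7 ± 6.01% in WT livers (mean ± SD, n = 5 each), a share that carries the same uncertainty and ran from 40.5% to 62.1% in KO livers and from 41.8% to 57.6% in WT livers.

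Relative to its own substrate enzymes, Fasn stood higher in KO livers. The ratio of Fasn to Acaca ran from 4.40 to 7.0 in KO livers and from 3.68 to 4.89 in WT livers, and that of Fasn to Acly from 1.12 to 1.92 in KO livers and from 0.873 to 1.2 in WT livers. In each ratio KO replicate 1 was the liver within the WT range. No test was made of these ratios, since the genes were chosen with earlier results known. The ratio to Acaca carries the uncertainty of the Acaca level. With log2 fold changes of 0.10 for Acaca and 0.06 for Acly, both ratios mainly restate the Fasn difference and are not a separate observation.

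Me1 (ENSMUSG00000032418), the cytosolic malic enzyme that yields NADPH, was at 36.04, 42.38, 37.38, 35.43 and 33.55 FPKM in KO replicates 1 to 5, against 47.12, 26.94, 49.83, 42.39 and 39.12 FPKM in WT replicates 1 to 5. Apart from WT replicate 2, the lowest of all livers, the WT livers lay above 4 of the 5 KO livers. Me1 had a log2 fold change of -0.12 (95% CI -0.43 to 0.18, limma adjusted p = 0.767), and -0.27 without WT replicate 2, at an unadjusted limma p of 0.0104 and an adjusted p of 0.257. In its longest transcript, 32.8% of 50-base windows occur in other genes, most of them in the processed pseudogene Gm7049, a symbol with no entry among the deposited genes.

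Elovl6 (ENSMUSG00000041220), which extends palmitate to stearate, was at 6.29, 6.24, 6.66, 5.0 and 6.82 FPKM in KO replicates 1 to 5, against 6.32, 4.39, 5.70, 4.87 and 5.87 FPKM in WT replicates 1 to 5. The ranges overlapped, and KO replicate 4 was the only KO liver below the WT mean. Elovl6 had a log2 fold change of 0.18 (95% CI -0.06 to 0.42, limma adjusted p = 0.551), with 0.25 without KO replicate 4 and 0.11 without WT replicate 2. Elovl6 lies on chromosome 3, from 129532355 to 129638495 on the plus strand (GRCm38), 978953 bases before Etnppl with 10 protein-coding genes between them. An effect of the knocked-out locus or of DNA linked to it and an effect of the missing enzyme therefore cannot be told apart for Elovl6.

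Scd1 (ENSMUSG00000037071), the main hepatic stearoyl-CoA desaturase, was both the highest and the most variable of the 10 genes. It was at 206.86, 488.37, 229.32, 63.14 and 96.83 FPKM in KO replicates 1 to 5, against 224.38, 164.40, 158.50, 57.42 and 85.42 FPKM in WT replicates 1 to 5. In each genotype the livers numbered 4 and 5 were the lowest, and KO replicate 2 was far above the rest. The 8.51-fold range over the 10 livers was wider than that of any of the other 9 genes, the next being Fasn at 2.34-fold. Scd1 had a log2 fold change of 0.46 (95% CI -0.88 to 1.80, limma adjusted p = 0.803), so KO levels from 0.542 to 3.49 times those of WT lay within the interval. It was 0.08 without KO replicate 2, 0.19 without WT replicate 4 and 0.82 without KO replicate 4. Of the related desaturases, Scd2 was at 0.480 to 0.960 FPKM and Scd3 and Scd4 at no more than 0.0400 FPKM in any liver.

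Srebf1 (ENSMUSG00000020538), which encodes the SREBP-1 proteins, was at 14.73, 16.81, 15.74, 22.08 and 32.70 FPKM in KO replicates 1 to 5, against 14.25, 15.48, 15.33, 28.11 and 20.09 FPKM in WT replicates 1 to 5. The livers numbered 4 and 5 of both genotypes, the lowest for Scd1, were the highest for Srebf1. The log2 fold change was 0.11 (95% CI -0.42 to 0.64, limma adjusted p = 0.893), and it turned to -0.073 without KO replicate 5. FPKM per gene does not separate SREBP-1a from SREBP-1c transcripts. Srebf1 RNA also does not measure the processed nuclear protein.

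**Figure D2:**
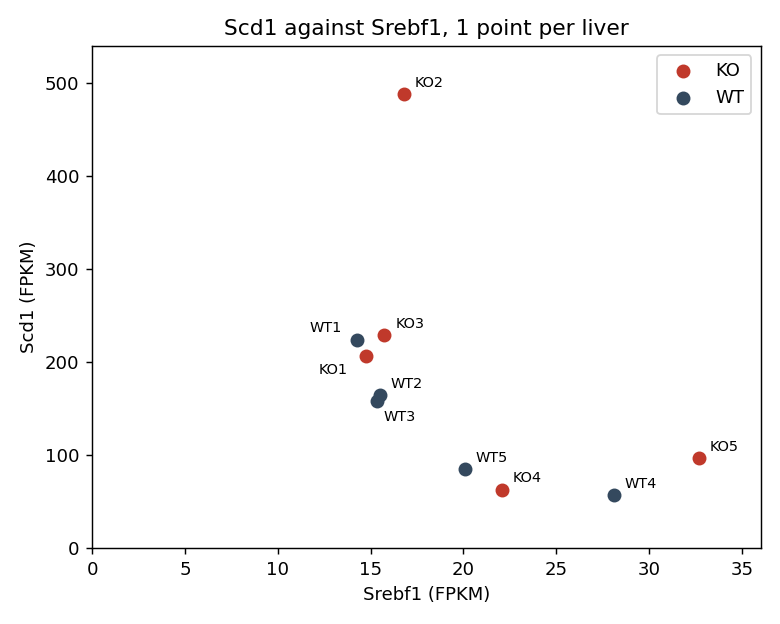
Scd1 against Srebf1 in FPKM, 1 point per liver (KO red, WT blue). The 4 livers numbered 4 and 5 sit at 20.09 to 32.70 FPKM of Srebf1 and 57.42 to 96.83 FPKM of Scd1, and the other 6 at 14.25 to 16.81 FPKM of Srebf1 and 158.50 to 488.37 FPKM of Scd1.

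In this plot of Scd1 against Srebf1 the livers fell into separate clusters with KO and WT livers in each, so no pooled correlation is given for this pair. The sources used here do not say what the replicate numbers mark, and the part of any shared handling in this split was not tested. The ratio of Scd1 to Srebf1 was 2.86 and 2.96 in KO replicates 4 and 5 and 2.04 and 4.25 in WT replicates 4 and 5. In replicates 1 to 3 it was 14.0, 29.1 and 14.6 in KO livers and 15.7, 10.6 and 10.3 in WT livers.

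Mlxipl (ENSMUSG00000005373), which encodes the glucose-responsive factor ChREBP, was at 66.82, 85.29, 72.22, 72.78 and 80.62 FPKM in KO replicates 1 to 5, against 94.50, 75.79, 71.31, 89.43 and 69.96 FPKM in WT replicates 1 to 5. It was one of the steadiest genes of the set, with a 1.41-fold range over all livers. Between the genotypes the log2 fold change was -0.08 (95% CI -0.29 to 0.13, limma adjusted p = 0.784).

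**Figure D3:**
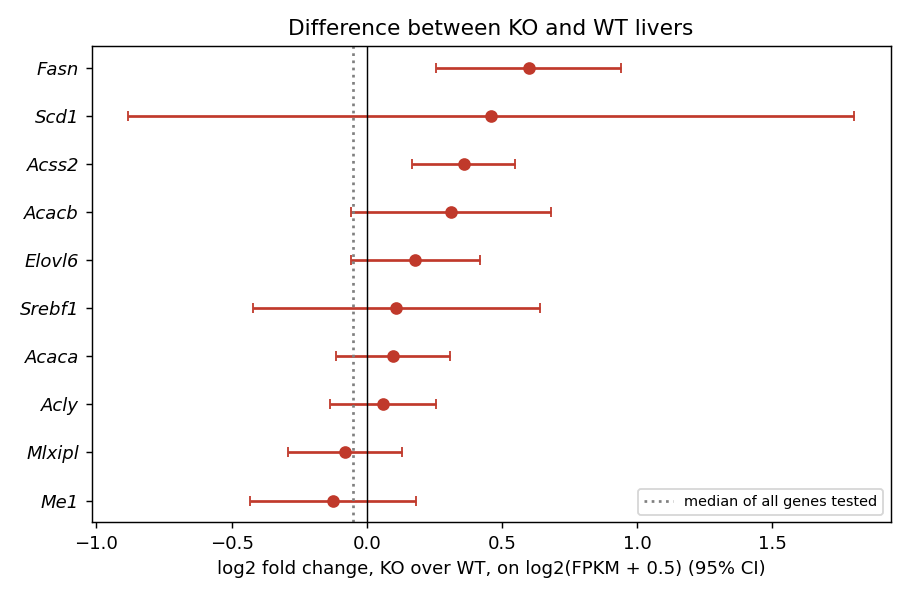
Log2 fold change of each lipogenic gene, KO over WT, on the log2(FPKM + 0.5) scale, with its 95% CI from limma. The intervals of Fasn (0.26 to 0.94) and Acss2 (0.17 to 0.55) lie above 0 and the other 8 include it, and none passed adjustment over all genes.

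By level, the order over the 10 livers was Scd1, Mlxipl, Me1, Fasn, Acly, Acss2, Srebf1, Acacb, Acaca and Elovl6, with means of 177 FPKM at the top and 5.82 FPKM at the bottom. Separate ranges divided Mlxipl from Me1 and Srebf1 from Acacb, so the desaturase and ChREBP formed an upper tier and the carboxylases and elongase a lower tier. Within a tier neighbours overlapped. Fasn was above Me1 in 4 of 5 KO livers and in 0 of 5 WT livers, although the means over all livers put Me1 first. Scd1 made 47.2% of the summed mean FPKM of the 10 genes in KO livers and 37.9% in WT livers. The KO share leans on KO replicate 2, with Scd1 at 488.37 FPKM against 63.14 to 229.32 FPKM in the other KO livers. This share was not tested between the genotypes.

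Single livers led or trailed for several of the 10 genes at once. How often the same livers led or trailed over all genes tested was not counted. KO replicate 5 was the highest of all 10 livers for 5 of the 10 genes, namely Fasn, Acss2, Srebf1, Acaca and Elovl6. WT replicate 2 was the lowest for 5, namely Fasn, Me1, Acacb, Acaca and Elovl6. WT replicate 1 was the lowest for Acly, Acss2 and Srebf1 but the highest for Mlxipl.

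Pairs of the 10 genes were related over the livers, 45 pairs in all, on the log2(FPKM + 0.5) scale. None passed adjustment over the 45 pairs (permutation test, lowest adjusted p = 0.334 for Pearson's r and 0.531 for Spearman's rho), and at an unadjusted p under 0.05 there were 4 pairs by r and 2 by rho. Fasn and Acaca had r = 0.69 (permutation p = 0.0231, adjusted 0.334) and rho = 0.72 (permutation p = 0.0232, adjusted 0.531). Without KO replicates 2 and 5, the livers farthest from the median of Fasn, their r was 0.17. Leaving these livers out also narrows the range of Fasn, which by itself can lower r. Fasn and Acss2 had r = 0.72 (permutation p = 0.0192, adjusted 0.334) and rho = 0.58 (permutation p = 0.0903, adjusted 0.677), and r was 0.64 without KO replicates 2 and 5. Acaca and Elovl6 had r = 0.67 (permutation p = 0.0297, adjusted 0.334) and rho = 0.64 (permutation p = 0.0541, adjusted 0.602), and r was 0.45 without KO replicate 5 and WT replicate 2. Acacb and Acly ran opposite, with r = -0.52 (permutation p = 0.121, adjusted 0.690) and rho = -0.72 (permutation p = 0.0236, adjusted 0.531), and r was -0.46 without the same 2 livers. The remaining pair at an unadjusted p under 0.05 by r was Scd1 and Srebf1, described above by its clusters. After subtracting the genotype means, r was 0.28 for Fasn and Acss2 and 0.71 for Fasn and Acaca.

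The genes whose pattern over the 10 livers was most like that of Fasn, out of all genes tested, were Ptges2 (r = 0.92), Mocs3 (r = 0.91) and Aspdh, Klhl26 and Fem1a (r = 0.90 each). Those most like Scd1 were Cadm1 (r = 0.93), Cnnm4 (r = 0.91), 1810011O10Rik and H2-K1 (r = 0.90 each) and Zdhhc14 (r = 0.88). No lipogenic gene was among either 5. These are the highest values out of 12395 genes over 10 libraries of both genotypes on the same diet. Genotype means were not removed, so a difference between the genotypes can raise r, and the values are given as a description.

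The wider pathway was described with 8 lists of 107 distinct genes, of which 99 were tested. In limma none of the 99 passed over all genes. An unadjusted p under 0.05 was met by 3 genes that were higher and 8 that were lower (2.69% and 9.07% of all genes tested). Of the 99, 42 (42.4%) had a positive log2 fold change, against 34.9% of all genes tested. The median was -0.03, against -0.05 over all genes tested. The counts per list below are to be read beside 34.9% higher and 65.1% lower over all genes tested.

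Among controllers of SREBP-1c, 10 of 18 genes were higher and 8 lower in KO, with a median log2 fold change of 0.01. Srebf2, which encodes the cholesterol-directed relative of SREBP-1, was at 14.60, 14.66, 15.30, 11.86 and 13.37 FPKM in KO replicates 1 to 5, against 9.33, 8.74, 11.23, 11.16 and 10.02 FPKM in WT replicates 1 to 5. Its groups did not overlap, but it did not pass (log2 fold change 0.45, limma adjusted p = 0.104). Lpin1, a phosphatidate phosphatase and coactivator, was at 86.72, 35.48, 73.15, 57.58 and 13.20 FPKM in KO replicates 1 to 5, against 37.20, 19.99, 30.14, 10.08 and 12.86 FPKM in WT replicates 1 to 5. That difference was wide and uneven between livers (log2 fold change 1.16, 95% CI -0.12 to 2.43, limma adjusted p = 0.457). Insig1, which holds SREBP in the endoplasmic reticulum, was at 44.8 ± 13.6 FPKM in KO livers and 32.9 ± 7.30 FPKM in WT livers, and its partner Insig2 at 303 ± 62.0 FPKM in KO livers and 268 ± 66.0 FPKM in WT livers. The escort protein gene Scap was at 32.9 ± 3.05 FPKM in KO livers and 30.6 ± 4.20 FPKM in WT livers, and Nr1h3, which encodes the oxysterol receptor LXR alpha, at 75.3 ± 6.48 FPKM in KO livers and 69.9 ± 3.62 FPKM in WT livers. The lysophospholipid acyltransferase Lpcat3 was at 49.3 ± 4.19 FPKM in KO livers and 55.9 ± 2.79 FPKM in WT livers, and the transcription factor Usf1 at 16.2 ± 1.18 FPKM in KO livers and 18.1 ± 1.78 FPKM in WT livers. None of these passed (mean ± SD, n = 5 each).

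In the list of partners and targets of ChREBP, 7 of 12 genes were higher and 5 lower, with a median log2 fold change of 0.05. Its partner Mlx was at 23.5 ± 2.29 FPKM in KO livers and 24.5 ± 1.62 FPKM in WT livers. The thioredoxin-binding gene Txnip was at 53.9 ± 10.1 FPKM in KO livers and 68.2 ± 16.1 FPKM in WT livers. The hormone Fgf21 was at 25.5 ± 4.55 FPKM in KO livers and 38.7 ± 15.1 FPKM in WT livers, while G6pc, the glucose-6-phosphatase, was at 191 ± 36.6 FPKM in KO livers and 157 ± 20.2 FPKM in WT livers. The glycogen-targeting phosphatase subunit Ppp1r3b was at 63.0 ± 19.2 FPKM in KO livers and 41.9 ± 15.3 FPKM in WT livers. These targets lay in both directions, and the lowest limma adjusted p of the list was 0.432, for Txnip.

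Carbon supply showed 7 of 14 genes higher and 7 lower, with a median log2 fold change of 0.02. The citrate carrier Slc25a1 was at 99.7 ± 7.56 FPKM in KO livers and 102 ± 3.39 FPKM in WT livers, or -0.04 on the log2 scale (95% CI -0.17 to 0.09). The pyruvate kinase Pklr was at 42.2 ± 7.49 FPKM in KO livers and 38.5 ± 8.22 FPKM in WT livers. Acat2, a cytosolic thiolase that draws acetyl-CoA toward sterols, was the 1 gene of this list at an unadjusted p under 0.05, at 29.2 ± 3.73 FPKM in KO livers and 23.6 ± 1.90 FPKM in WT livers (limma adjusted p = 0.228). The pyruvate dehydrogenase genes Pdhb, at 64.9 ± 3.17 FPKM in KO livers and 69.0 ± 3.93 FPKM in WT livers, and Dlat, at 14.3 ± 1.88 FPKM in KO livers and 15.2 ± 1.39 FPKM in WT livers, did not pass.

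NADPH supply beside Me1 had 2 of 9 genes higher and 7 lower, against 34.9% and 65.1% of all genes tested. The median log2 fold change was -0.07. G6pdx, the first enzyme of the pentose phosphate pathway, was at 3.25 ± 0.374 FPKM in KO livers and 3.78 ± 0.651 FPKM in WT livers, and Pgd, a later enzyme of it, at 13.2 ± 1.07 FPKM in KO livers and 13.7 ± 0.926 FPKM in WT livers. The microsomal relative H6pd was at 89.5 ± 9.62 FPKM in KO livers and 98.2 ± 16.6 FPKM in WT livers. Pgls, the lactonase of the pathway, was at 59.4 ± 4.69 FPKM in KO livers and 55.9 ± 2.09 FPKM in WT livers, and the isomerase Rpia at 1.65 ± 0.262 FPKM in KO livers and 1.84 ± 0.302 FPKM in WT livers. No gene of this list was at an unadjusted p under 0.05.

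Among proteins that set carboxylase and synthase activity, 6 of 16 genes were higher and 10 lower (34.9% and 65.1% of all genes tested). The median log2 fold change was -0.03. Thrsp, a lipogenic gene whose product acts with Mid1ip1 on the carboxylase, was at 18.02, 22.21, 21.40, 12.26 and 33.09 FPKM in KO replicates 1 to 5, against 6.96, 5.78, 30.43, 14.04 and 13.65 FPKM in WT replicates 1 to 5. WT replicate 3 was the second highest liver, and the test gave a limma adjusted p of 0.539. Mid1ip1 was at 8.23 ± 2.33 FPKM in KO livers and 8.30 ± 2.38 FPKM in WT livers. Ppm1k, a phosphatase that has been reported to act on ATP citrate lyase as well as on its main substrate in branched-chain amino acid breakdown, was at 10.8 ± 1.51 FPKM in KO livers and 14.0 ± 2.51 FPKM in WT livers (limma adjusted p = 0.257). Prkaa2, a catalytic subunit of the AMP-activated kinase that inhibits the carboxylases, was at 5.45 ± 0.660 FPKM in KO livers and 6.36 ± 0.510 FPKM in WT livers (limma adjusted p = 0.407). The kinase subunit Prkag1, at 14.9 ± 0.738 FPKM in KO livers and 16.2 ± 0.868 FPKM in WT livers, and the acyl-CoA binding protein gene Dbi, at 528 ± 38.7 FPKM in KO livers and 589 ± 57.5 FPKM in WT livers, also did not pass.

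Relatives of the elongase and desaturase steps had 4 of 12 genes higher and 8 lower (34.9% and 65.1% of all genes tested). The median log2 fold change was -0.08. The dehydratases of the elongation cycle differed in direction. Hacd2 was at 19.6 ± 1.29 FPKM in KO livers and 16.8 ± 1.59 FPKM in WT livers, without overlap, while Hacd3 was at 78.6 ± 6.47 FPKM in KO livers and 88.7 ± 2.24 FPKM in WT livers and Hacd1 at 6.41 ± 1.33 FPKM in KO livers and 8.25 ± 1.06 FPKM in WT livers. Their limma adjusted p values were 0.292 for Hacd2, 0.280 for Hacd3 and 0.309 for Hacd1. Elovl5, which elongates polyunsaturated fatty acids, was at 252 ± 32.2 FPKM in KO livers and 302 ± 54.0 FPKM in WT livers (limma adjusted p = 0.451).

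Genes that receive the new fatty acids had 6 of 16 higher and 10 lower (34.9% and 65.1% of all genes tested). The median log2 fold change was -0.04. The 3 genes at an unadjusted limma p under 0.05 were all lower in KO. That call was met by 9.07% of all genes tested in the lower direction and 2.69% in the higher. The acyltransferase Mogat1 was at 1.93 ± 0.581 FPKM in KO livers and 3.36 ± 1.32 FPKM in WT livers, the carnitine palmitoyltransferase Cpt1a, which malonyl-CoA inhibits, at 217 ± 27.4 FPKM in KO livers and 257 ± 23.5 FPKM in WT livers, and the lipid droplet coat gene Plin2 at 416 ± 45.9 FPKM in KO livers and 566 ± 147 FPKM in WT livers. The limma adjusted p was 0.288 for Mogat1, 0.313 for Cpt1a and 0.320 for Plin2. Acsl1, an acyl-CoA synthetase, was at 382 ± 33.0 FPKM in KO livers and 460 ± 90.1 FPKM in WT livers. The separate mitochondrial fatty acid synthesis pathway had 4 of 6 genes higher and 2 lower (median log2 fold change 0.05), with its malonyl transferase Mcat at 12.3 ± 1.92 FPKM in KO livers and 11.2 ± 0.394 FPKM in WT livers. Its acyl carrier protein Ndufab1 was at 154 ± 12.2 FPKM in KO livers and 143 ± 9.35 FPKM in WT livers, and no gene of it was at an unadjusted p under 0.05.

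**Figure D4:**
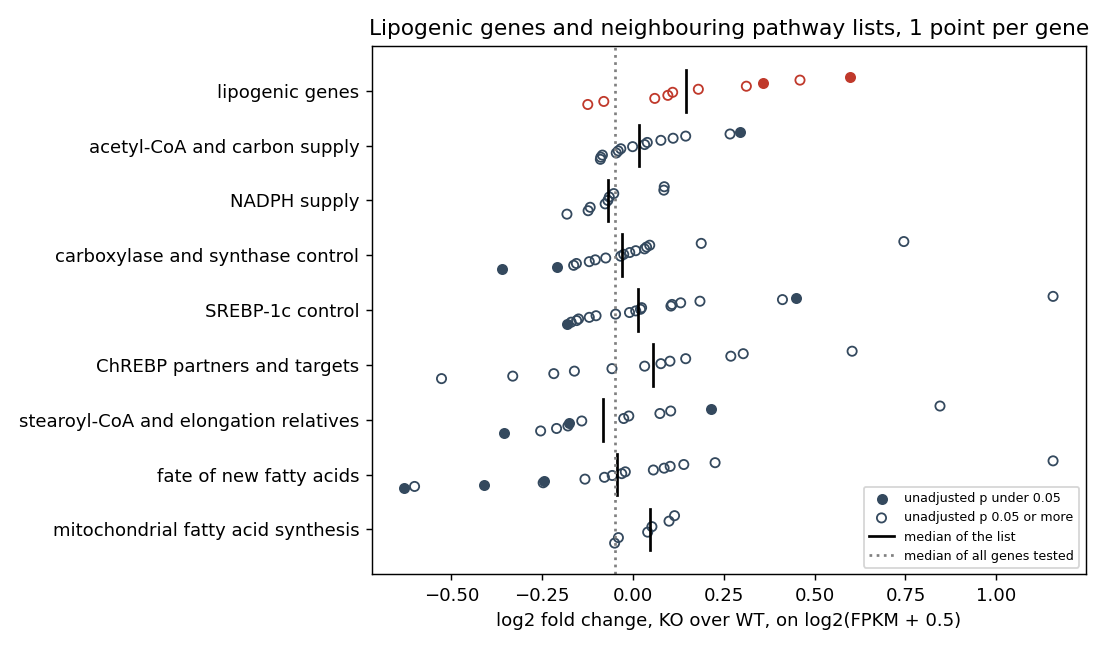
Log2 fold change, KO over WT, of each lipogenic gene (red) and of the genes of 8 neighbouring lists (blue), filled where the unadjusted limma p was under 0.05, with each list's median as a black bar and the median of all genes tested (-0.05) dotted. The list medians lie between -0.08 and 0.05, against 0.14 for the lipogenic genes. The hepatocyte markers, which are not drawn, had a median of 0.13.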

How the data were processed

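The authors deposited 1 table of FPKM with 10 library columns, matched by name to the labels, and 2 empty unnamed columns that were not used. The tools named in the submitters' processing notes are DESeq2, DESeq, RSEM, STAR and R 4.0.2, with the build mm10, and no role is stated for any. Because FPKM divides by the library total, very abundant transcripts can move all other values. Fragment totals were inferred from step sizes in the low values of genes with 1 transcript of 350 to 1000 bases, where 92.2% to 96.2% of values came within 0.1 fragment of a whole number. No counts were rebuilt. Hsd17b8, of the mitochondrial list, is not analysed here. One gene of the carbon supply list is counted there but not reported here by name.

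The comparison was KO against WT with limma 3.58.1 in R 4.3.3 on log2(FPKM + 0.5), with trend and robust prior, two-sided, over the 12395 genes that averaged 0.5 FPKM or more. Fold changes on this scale understate those of low genes. The genes, lists and tests were chosen with earlier results of these data known. The rule for named genes takes the 10 genes, Etnppl, up to 4 genes of lowest p in each list, a fixed set of regulators, and the 5 genes most like Fasn and Scd1 by r. Scd3, Scd4, Gss, Acss2os, Adrb3, the pseudogenes and the genes most like Acss2 were named after their values were seen. Pairs were tested with 100000 permutations in scipy 1.17.1. Gene positions and transcripts are from GENCODE M21 (GRCm38) and upstream windows from RefSeq. Alternatives were other pseudocounts, filters, scalings and priors, a replicate block and each library left out.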

Additional observations from a re-analysis of the deposited data

Results flagged for a closer look

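In none of the 10 lipogenic genes did a liver meet the cut-off of a test of the gap to the nearest liver against the whole range of the group, Scd1 in KO replicate 2 included. In the wider lists, Lpcat3 was at 60.77 FPKM in WT replicate 4, above the other WT livers, which lay close together at 53.93 to 55.25 FPKM. Txnip was at 96.90 FPKM in WT replicate 3, far above the other WT livers. These are 2 of 108 groups of 5 livers tested, and chance flags about 1 in 20.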

How the results depend on the processing

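None of the 10 genes and none of the list genes passed under any of the 20 other settings, and 9 of the 10 kept their direction throughout, Srebf1 turning to -0.073 without KO replicate 5 (its log2 fold change ran from -0.073 to 0.27 when each library was left out). The lowest limma adjusted p over these settings was 0.0906 for Fasn (log2 fold change 0.50 to 0.73) and 0.111 for Acss2 (0.29 to 0.42), and both had an unadjusted p under 0.05 in all 20. The count over all genes tested was 8, and 5 with no filter on low values, with no trend or robust prior, and with the replicate block, while leaving out 1 library gave 4 (without KO replicate 2, WT replicate 1 or WT replicate 5) to 18 (without WT replicate 2). The labels do not say whether the replicate number pairs the livers. Correlations of same-numbered livers ran from -0.02 to 0.20, against -0.22 to 0.16 for differently numbered ones, and the highest was between the livers numbered 5. With the block the limma adjusted p was 0.136 for Fasn, 0.212 for Acss2 and 0.494 for Scd1. For Scd1 the unadjusted limma p was 0.0995 with the block and 0.458 in the main fit. Acaca and Me1 share sequence with pseudogenes, so their levels are uncertain.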

Other observations

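The 5 genes most like Acss2 over the 10 livers were named after their values were seen. The isomerase Idi1 had r = 0.95 with Acss2, the sterol oxidase Msmo1 r = 0.94, the mevalonate kinase Mvk r = 0.94 and the squalene epoxidase Sqle r = 0.94, followed by the transport gene Yif1b at r = 0.93. These are the 5 highest values among all genes tested, over libraries of both genotypes on the same diet. Genotype means were not removed here either, and the values are given as a description. Idi1 was at 19.6 ± 4.55 FPKM in KO livers and 10.5 ± 4.76 FPKM in WT livers. Sqle was at 10.0 ± 2.41 FPKM in KO livers and 4.25 ± 2.02 FPKM in WT livers (mean ± SD, n = 5 each), with limma adjusted p values over all genes of 0.288 for Idi1 and 0.223 for Sqle, so that both missed the threshold.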
